A study of Mus musculus with 18 samples.

Results

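The enzymes that join fatty acids to a glycerol backbone were followed in epididymal fat and liver of mice on 3 diets. The 10 genes, among 23474 in the table, were Gpam, Gpat3, Gpat4, Agpat2, Lpin1, Lpin2, Dgat1, Dgat2, Mogat1 and Mogat2, taken by matching the table's Ensembl identifiers to these symbols. RNA sequencing of polyadenylated RNA from bulk tissue gave FPKM (fragments per kilobase of transcript, scaled to the library's mapped fragments) for 18 libraries, 3 for each diet in each tissue. The GT group ate a high-fat diet with 0.25% by weight of an ethanol extract of green tea, the HFD group the high-fat diet alone, and the ND group a normal diet. Every animal was a male C57BL/6J mouse, started on its diet at 5 weeks of age, kept on it for 12 weeks and labelled as 17 weeks old. Each diet had 10 of the 30 mice. Whether each library is a separate mouse is not labelled, nor whether fat and liver libraries with 1 number share a mouse. The p-values therefore measure the spread between these libraries, which may be technical.

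Triglyceride is built in the glycerol-3-phosphate pathway. A glycerol-3-phosphate acyltransferase (GPAT) adds the first fatty acid, an acylglycerol-phosphate acyltransferase (AGPAT) adds the next and makes phosphatidate, and a lipin removes the phosphate to leave diacylglycerol. A diacylglycerol acyltransferase (DGAT) then adds the last fatty acid, while a monoacylglycerol acyltransferase (MOGAT) reaches diacylglycerol by a separate route that starts at monoacylglycerol. Adipose tissue stores the product, and the liver stores part of it and secretes part of it in lipoproteins.

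The libraries matched their labelled tissues, but 1 fat library stood apart. Of 8 adipocyte markers, at least 7 reached 10 FPKM in every fat library, and of 8 hepatocyte markers at least 7 did so in every liver library. Fat ND 1 held 99230 FPKM summed over 10 testis markers and 21830 over 8 epididymis markers, beside 7218 over the adipocyte markers. The other 8 fat libraries held 16960 to 35810 over the adipocyte markers. Testis markers summed to 3046 in fat ND 3 and 2092 in fat HFD 1, and epididymis markers to 1663 in fat HFD 2. Liver HFD 2, GT 3 and HFD 3 held 82.2, 35.4 and 16.4 FPKM of skeletal muscle markers, against at most 3.20 in the remaining liver libraries. Liver GT 3 had the lowest sum over the 10 enzyme genes, 311 FPKM, against 415 to 487 in the other liver libraries. A value of 0 in this kind of table can be a failed estimate, since albumin is listed at 0 in liver HFD 3. Tests in fat are given without ND 1 and, beside them, with all 9 libraries. Each test was repeated under other settings and without each library in turn, 15 times in fat without ND 1, 16 times in liver and 24 times across the tissues. The repeats include fat without ND 3 and HFD 1 as well, and liver without HFD 2 and GT 3, where liver HFD 3 was kept. Where ND 2 or ND 3 was left out beside ND 1, a single ND fat library remained. Those repeats say nothing of the spread within ND fat.

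Promoter windows are shown for the genes whose fat levels differed between HFD and ND in all repeats of the test without ND 1 (Gpat3 and Mogat1, lower on HFD, and Agpat2, higher), so that their letters can be set beside their values. RefSeq windows of 300 bases, 250 before and 50 after a start of transcription in build GRCm38.p6, were available for 6 of the 10 genes. Those of Gpat3 (chr5:100845979-100846278, plus strand), Mogat1 (chr1:78510810-78511109, plus strand) and Agpat2 (chr2:26604368-26604667, minus strand) read 5′ to 3′ as follows. Capitals mark GGGCGG, a GC box, in Gpat3 and Agpat2, and the reverse complement of CCAAT in Mogat1.
Gpat3: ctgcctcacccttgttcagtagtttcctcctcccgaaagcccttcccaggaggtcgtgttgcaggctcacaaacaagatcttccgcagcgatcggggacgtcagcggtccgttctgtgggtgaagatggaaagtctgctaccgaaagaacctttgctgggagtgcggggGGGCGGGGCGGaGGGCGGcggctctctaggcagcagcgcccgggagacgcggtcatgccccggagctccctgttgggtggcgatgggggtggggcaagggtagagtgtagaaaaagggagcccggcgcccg
Mogat1: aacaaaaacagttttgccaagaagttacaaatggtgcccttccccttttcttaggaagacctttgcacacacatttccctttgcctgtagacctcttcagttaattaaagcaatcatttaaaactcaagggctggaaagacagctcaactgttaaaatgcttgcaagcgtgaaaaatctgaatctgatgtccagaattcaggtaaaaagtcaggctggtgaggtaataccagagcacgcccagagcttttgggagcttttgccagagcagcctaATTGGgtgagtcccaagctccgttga
Agpat2: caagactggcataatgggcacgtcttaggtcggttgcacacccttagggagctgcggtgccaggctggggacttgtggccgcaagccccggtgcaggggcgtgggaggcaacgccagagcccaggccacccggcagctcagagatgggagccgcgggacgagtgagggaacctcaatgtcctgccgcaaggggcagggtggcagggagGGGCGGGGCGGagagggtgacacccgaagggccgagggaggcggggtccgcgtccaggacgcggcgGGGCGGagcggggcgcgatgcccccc
The Gpat3 and Agpat2 windows each held 3 GC boxes, of which a pair shares a base, with a GC content of 64.3% and 72.0% and 23 and 26 CpG dinucleotides. The Mogat1 window held none, with a GC content of 43.7% and 3 CpG. Both strands were searched. The GC box GGGCGG occurred in 35.7% of 32851 RefSeq windows of the same length and CCAAT in 37.4%. The nuclear receptor element AGGTCA, which occurred in 16.3% of windows, was in that of Lpin1 and in 1 of the Gpam windows. None of the 3 windows shown held it, nor the E-box CACGTG (7.15% of windows) or the TATA element TATAAA (13.6%). These matches describe the letters only, and GC boxes stood in the window of a gene that was higher on HFD (Agpat2) and of one that was lower (Gpat3).

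In fat, the high-fat diet went with less Gpat3, Mogat1 and Lpin1 and more Agpat2 RNA. Without ND 1, HFD fat against ND fat had 1 of the 9 measurable genes higher and 3 lower at an adjusted p under 0.05 (limma on log2(FPKM + 1), Benjamini-Hochberg over 12859 genes). Across all genes 17.8% were higher, 9.62% lower and 27.4% called in either direction. The median difference of the 9 genes was -0.53 on the log2 scale, against 0.02 over all genes. Libraries of HFD and ND did not overlap for 7 of the 9 genes, 3 higher and 4 lower, against 50.2% of all genes (30% higher and 20.2% lower). With all 9 fat libraries none of the 9 genes passed (5.65% of all genes did), and 4 had an unadjusted p under 0.05, against 20.5% of all genes. Lpin2 had no value above 0 in any library and entered no test.

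Adding the extract went with more Gpat3 RNA in fat. Without ND 1, GT fat against HFD fat had 1 of 9 genes higher and none lower, where 0.894% of all genes were higher, 0.801% lower and 1.7% called in either direction. The unadjusted p was under 0.05 for 7 of the 9, against 22.6% of all genes. GT libraries lay wholly above HFD libraries for 5 of 9 genes (Gpat3, Lpin1, Dgat1, Dgat2 and Mogat1), against 12.4% of all genes, and wholly below for none, against 24.5%. The median of the 9 genes was 0.51, against -0.12 over all genes. With all 9 fat libraries none of the 9 passed, nor did any other of the 13762 genes (0% called), and 2 of the 9 had an unadjusted p under 0.05, against 3.39% of all genes. Since ND 1 is in neither group of GT against HFD, it enters that fit only through the spread shared by the diets. Gpat3 stayed at 1.55, with an SE of 0.57 against 0.24 without ND 1. GT against HFD uses the same HFD libraries as HFD against ND, so the values of the pair are given side by side and are not independent. Against ND fat, GT fat had 2 genes higher, Agpat2 and Dgat2, and 1 lower, Mogat1 (7.5% of all genes higher, 3.16% lower, 10.7% either). With all 9 libraries none of the 9 passed in GT against ND (0.639% of all genes did), and 2 had an unadjusted p under 0.05, against 20.4% of all genes.

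Liver on the high-fat diet held less Gpat4 and more Mogat1 RNA. HFD liver against ND liver had 1 of the 8 testable genes higher and 1 lower, where 11.9% of 10670 genes were higher, 6.67% lower and 18.6% called in either direction. Libraries did not overlap for 4 of the 8, against 44.9% of all genes. The median of the 8 genes was 0.29, against -0.02 over all genes. None of the 8 passed for GT liver against HFD liver (5.36% of all genes did), with 2 at an unadjusted p under 0.05, against 23.4% of all genes. GT liver against ND liver had only Gpat4 called, lower (1.33% of all genes lower, 2.6% either). Mogat2 was below 1 FPKM in every liver library, so it and Lpin2 were not tested there. Bringing the libraries to equal FPKM totals moved the median of all genes in HFD against ND liver to -0.20 and in GT against HFD liver to 0.08.

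Markers of other cell types differed between the diets. In fat, 8 macrophage markers summed to 1344 to 3299 FPKM in GT, 3669 to 5186 in HFD and 62.3 to 518 in ND, and 7 of the 8 reached 10 FPKM in each GT and HFD library. The Kupffer cell marker Clec4f was at 0 in 8 of the 9 fat libraries and at 0.0248 FPKM in HFD 3. The adipocyte markers summed to 24540 to 28420 in GT and 16960 to 19480 in HFD. They summed to 35810 and 23990 in ND 2 and ND 3. Fabp4 made up most of these sums, at 17370 to 17590 FPKM in GT, 12040 to 14490 in HFD, and 23310 and 13010 in ND 2 and ND 3. Adipoq, Plin1, Cfd, Retn, Cidec and Lipe were lower in every HFD library than in ND 2 and ND 3. Lep was higher in HFD (899 to 1196) than in ND 2 and ND 3 (323 and 317). The part of these cell types in the differences below was not tested. In bulk tissue fewer cells of a type and less RNA per cell cannot be told apart. In liver the adipocyte markers summed to 185 to 296 in GT, 214 to 312 in HFD and 43.7 to 72.8 in ND. Outside HFD 3, most of that gap was in Cfd, the gene of the adipokine adipsin. Cfd was at 130.6 to 201.8 FPKM in GT, 54.7 to 192.5 in HFD and 0.720 to 3.11 in ND. In HFD 3, Cidec (115.5 FPKM) stood above Cfd (54.7). Adipoq, Plin1, Lep and Retn, which mark fat cells, were at most 1.40 FPKM in every liver library. Adipoq was at 0 in 2 GT libraries, 1 HFD library and all 3 ND libraries. Of the remaining adipocyte markers, Fabp4 had 5.49 to 10.9 FPKM in GT liver, 30.2 to 36.7 in HFD and 6.53 to 9.89 in ND. Cidec had 18.96 to 81.15 in GT, 71.8 to 115.5 in HFD and 28.84 to 55.04 in ND. Lipe had 8.11 to 13.04 in GT, 6.56 to 9.26 in HFD and 6.20 to 6.96 in ND.

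**Figure D1:**
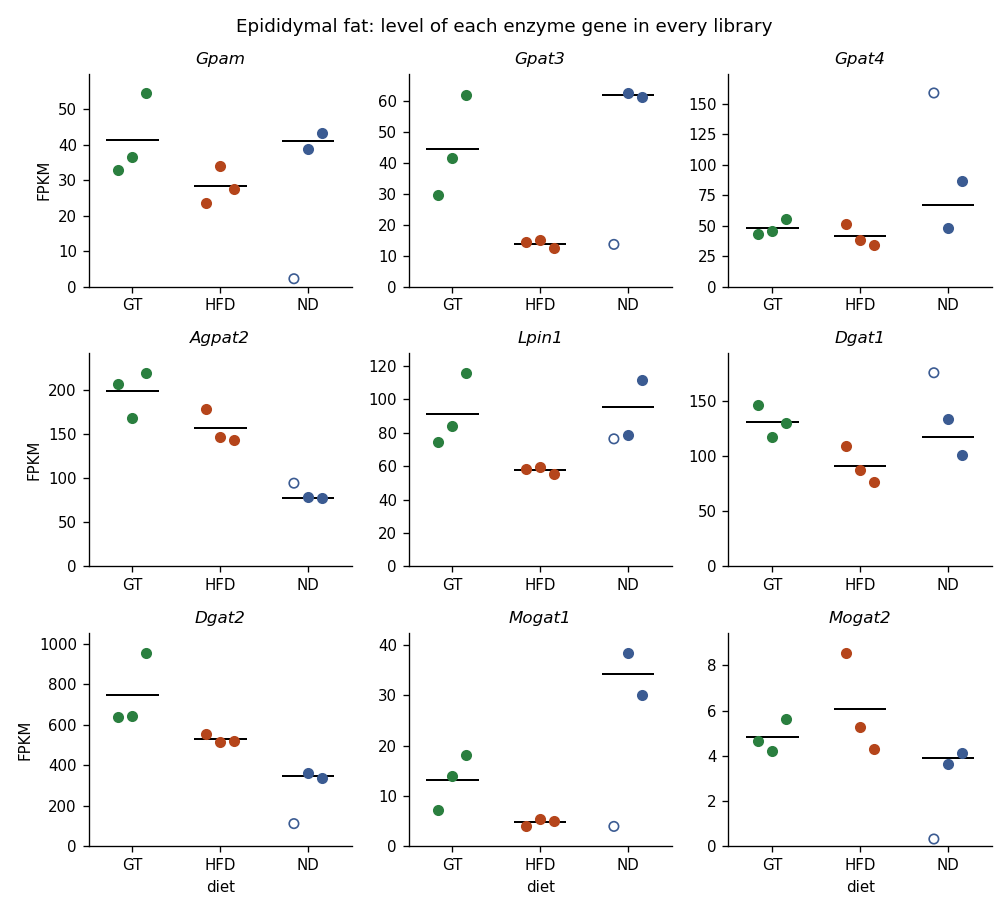
FPKM of 9 enzyme genes in each epididymal fat library on GT, HFD and ND. Points are libraries, lines are group means without ND 1, and the open point is ND 1. The 3 HFD libraries sit at 12.4 to 14.9 FPKM of Gpat3 and the 3 GT libraries at 29.5 to 61.9, and for Agpat2 the HFD libraries sit above every ND library.

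Gpat3 (ENSMUSG00000029314), a GPAT of the endoplasmic reticulum that is prominent in fat cells, was the GPAT gene that passed in the test of fat without ND 1. It had 29.5, 41.4 and 61.9 FPKM in GT fat, 14.3, 14.9 and 12.4 FPKM in HFD fat, and 62.5 and 61.0 FPKM in ND 2 and ND 3. All HFD libraries lay below all of these, and ND 1, at 13.6 FPKM, lay among the HFD libraries. HFD minus ND was -2.08 ± 0.26 on the log2 scale (SE; adjusted p = 0.00153), or 0.237-fold in FPKM + 1, and -1.38 ± 0.57 with ND 1 (adjusted p = 0.229). GT minus HFD was 1.55 ± 0.24 (adjusted p = 0.0412), or 2.92-fold, a call that was lost in 8 of 15 repeats of the test, with adjusted p-values of 0.023 to 0.231. It was lost without HFD 1, HFD 2, HFD 3, GT 2 or GT 3 (0.104, 0.132, 0.231, 0.199 and 0.119). GT against ND gave -0.53 ± 0.26 (adjusted p = 0.218), with a 95% interval of -1.14 to 0.07. In liver Gpat3 had 7.40, 7.31 and 2.66 FPKM in GT, 5.61, 6.77 and 10.3 FPKM in HFD and 8.86, 6.11 and 5.16 FPKM in ND. The 3 liver groups overlapped, and HFD against ND gave 0.14 ± 0.33 (adjusted p = 0.79), with a sign that turned when the FPKM totals were made equal (-0.05).

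Gpat4 (ENSMUSG00000031545), another GPAT of the endoplasmic reticulum, was the GPAT gene that passed between diets in liver. It had 39.2, 47.7 and 21.4 FPKM in GT liver, 42.2, 29.7 and 28.1 FPKM in HFD liver and 100.3, 83.9 and 79.4 FPKM in ND liver. The ND libraries lay above every other liver library. Against ND, HFD gave -1.39 ± 0.27 (adjusted p = 0.00842), or 0.382-fold, and kept its call in all 16 repeats (0.000691 to 0.0486). GT against ND gave -1.33 ± 0.27 (adjusted p = 0.029), which was lost in 8 of 16 repeats (0.0149 to 0.139), among them leaving out ND 1, ND 2, ND 3, HFD 2 or GT 1 (0.139, 0.0772, 0.0868, 0.0523 and 0.064). GT against HFD gave 0.06 ± 0.27 (adjusted p = 0.917), with a 95% interval of -0.53 to 0.65. In fat Gpat4 had 43.0, 46.0 and 55.1 FPKM in GT, 51.7, 37.9 and 34.5 FPKM in HFD and 48.0 and 86.6 FPKM in ND 2 and ND 3. ND 1 stood highest, at 159 FPKM. HFD against ND in fat gave -0.65 ± 0.27 without ND 1 (adjusted p = 0.107), with a 95% interval of -1.26 to -0.04. With ND 1 it gave -1.08 ± 0.42 (adjusted p = 0.204). With ND 1 kept and ND 2 left out, HFD against ND (-1.50, adjusted p = 0.0293) and GT against ND (-1.28, adjusted p = 0.0407) passed in limma.

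Gpam (ENSMUSG00000024978), the GPAT of the mitochondrial outer membrane, passed in no diet comparison. It had 33.0, 36.6 and 54.5 FPKM in GT fat, 23.5, 33.9 and 27.6 FPKM in HFD fat, and 38.9 and 43.4 FPKM in ND 2 and ND 3. HFD libraries lay below ND 2 and ND 3, while ND 1 held 2.25 FPKM, the lowest of the 9. The difference of HFD and ND was -0.53 ± 0.23 without ND 1 (adjusted p = 0.122) and 0.70 ± 0.91 with it (adjusted p = 0.636), so ND 1 set the sign. In liver Gpam had 27.2, 24.8 and 13.4 FPKM in GT, 15.3, 9.80 and 19.2 FPKM in HFD and 23.0, 17.0 and 31.7 FPKM in ND. These groups overlapped, with HFD against ND at -0.66 ± 0.31 (adjusted p = 0.153) and GT against HFD at 0.52 ± 0.31 (adjusted p = 0.344).

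Since FPKM is scaled by length, the levels of the GPAT genes can be added and each gene's share of the sum compared. In fat Gpat3 made up 28.0%, 33.4% and 36.1% of the GPAT sum in GT, 16.0%, 17.2% and 16.6% in HFD, and 41.8% and 31.9% in ND 2 and ND 3. The GT and HFD libraries did not overlap, and the exact two-sided permutation p of 0.1 is the smallest that 3 libraries against 3 allow. The sum itself averaged 134 ± 34.1 FPKM in GT fat and 83.6 ± 7.98 FPKM in HFD fat (SD, n = 3 each), and 149 and 191 FPKM in ND 2 and ND 3. In liver Gpat4 made up 53.1%, 59.8% and 57.2% of the sum in GT, 66.9%, 64.2% and 48.8% in HFD and 75.9%, 78.4% and 68.3% in ND. ND lay above both other diets (exact permutation p = 0.1 for each), while GT and HFD overlapped. The liver sum averaged 63.7 ± 22.9 FPKM in GT, 55.7 ± 8.59 FPKM in HFD and 118 ± 12.7 FPKM in ND (SD, n = 3 each).

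**Figure D2:**
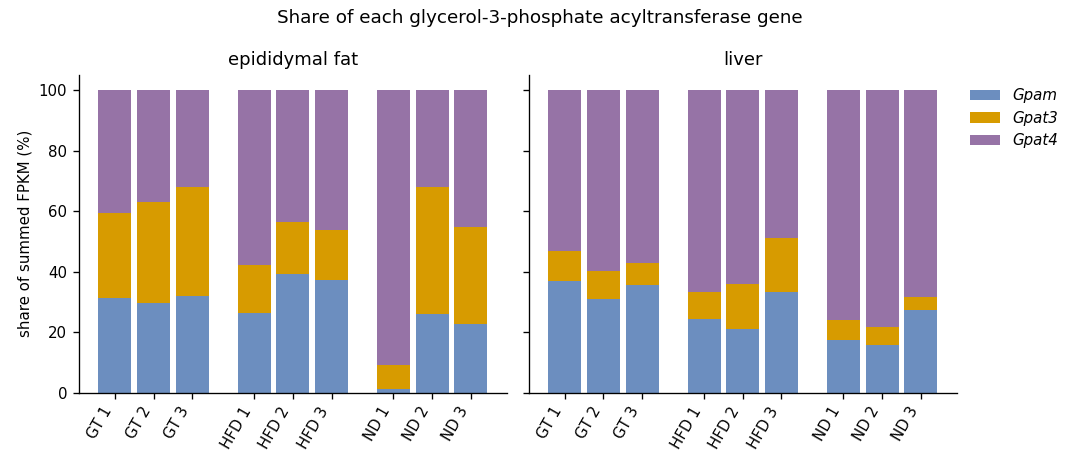
Share of the summed FPKM of Gpam, Gpat3 and Gpat4 held by each gene in every library, with fat left and liver right and diets as GT, HFD and ND. Bars are single libraries and each adds up to all 3 genes. Gpat3 holds 16.0% to 17.2% in the HFD fat libraries and 28.0% to 36.1% in the GT fat libraries, and Gpat4 holds 90.9% in fat ND 1.

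Agpat2 (ENSMUSG00000026922), the AGPAT whose loss causes congenital generalized lipodystrophy in humans, was higher in fat of both high-fat groups. It had 208, 169 and 220.0 FPKM in GT fat, 179, 148 and 143 FPKM in HFD fat, and 94.6, 78.5 and 77.9 FPKM in ND 1, ND 2 and ND 3. Every GT and HFD library lay above every ND library, ND 1 included. Relative to ND, HFD gave 0.99 ± 0.16 without ND 1 (adjusted p = 0.00326), or 1.98-fold, and kept its call in all 15 repeats (0.00182 to 0.0199). With ND 1 the value was 0.90 ± 0.24 (adjusted p = 0.0763). GT against ND gave 1.33 ± 0.16 (adjusted p = 0.00602), called in all 15 repeats, and 1.24 ± 0.24 with ND 1 (adjusted p = 0.0689). With overlapping libraries, GT minus HFD was 0.34 ± 0.14 (adjusted p = 0.203). In liver Agpat2 had 122, 106 and 85.1 FPKM in GT, 156, 156 and 152 FPKM in HFD and 125, 127 and 93.8 FPKM in ND. The HFD libraries lay above all the others, but neither HFD against ND (0.43 ± 0.18, adjusted p = 0.111) nor GT against HFD (-0.58 ± 0.18, adjusted p = 0.0846) passed.

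Lpin1 (ENSMUSG00000020593), the lipin whose loss makes the fatty liver dystrophy mouse lipodystrophic, had 74.4, 84.0 and 116 FPKM in GT fat, 58.5, 59.5 and 55.0 FPKM in HFD fat, and 76.3, 78.6 and 112 FPKM in ND 1, ND 2 and ND 3. All 3 HFD libraries lay below every GT and ND library. The HFD minus ND difference was -0.69 ± 0.21 without ND 1 (adjusted p = 0.0429) and -0.59 ± 0.27 with it (adjusted p = 0.253). The call was lost in 9 of 15 repeats (0.0201 to 0.225), including without ND 3, HFD 1, HFD 2, HFD 3 or GT 2 (0.178, 0.0841, 0.0868, 0.122 and 0.0713), and without ND 3 the difference was -0.44. GT against HFD gave 0.63 ± 0.19 (adjusted p = 0.117), and GT against ND -0.06 ± 0.21 (adjusted p = 0.869). In liver Lpin1 had 8.67, 4.95 and 5.47 FPKM in GT, 4.16, 6.47 and 16.4 FPKM in HFD and 2.04, 2.61 and 9.12 FPKM in ND. Library 3 stood above the others in both HFD and ND, the groups overlapped, and HFD against ND gave 0.86 ± 0.50 (adjusted p = 0.239). Lpin2 (ENSMUSG00000024052), a lipin known from mouse liver, was listed at 0 in all 18 libraries, as were 2750 genes of the table, so its level cannot be read from these data.

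Dgat2 (ENSMUSG00000030747), a DGAT of the endoplasmic reticulum and lipid droplet, was the most abundant of the 10 genes in both tissues. It had 640.0, 641 and 956 FPKM in GT fat, 555, 516 and 518 FPKM in HFD fat, and 112, 363 and 335 FPKM in ND 1, ND 2 and ND 3. The diets did not overlap: every GT library lay above every HFD library, and every HFD library above every ND library. GT against ND gave 1.07 ± 0.19 without ND 1 (adjusted p = 0.0156) and 1.61 ± 0.47 with it (adjusted p = 0.179). That call was lost in 4 of 15 repeats (0.00618 to 0.0684), 1 of which left out GT 2 (0.0545). HFD against ND gave 0.60 ± 0.19 (adjusted p = 0.0506) and passed in 5 repeats of the test, at 0.0103 to 0.0493, and GT against HFD gave 0.47 ± 0.17 (adjusted p = 0.169). In liver Dgat2 had 249, 262 and 159.7 FPKM in GT, 228, 196 and 196 FPKM in HFD and 139.5, 190.2 and 177 FPKM in ND. Every HFD library lay above every ND library, GT 3 lay among the ND libraries, and HFD against ND gave 0.30 ± 0.21 (adjusted p = 0.334).

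Dgat1 (ENSMUSG00000022555), a DGAT unrelated to Dgat2 in sequence, had 146, 117 and 129.8 FPKM in GT fat, 109.6, 87.0 and 76.7 FPKM in HFD fat, and 134 and 101 FPKM in ND 2 and ND 3. GT lay above HFD, ND overlapped both, and ND 1 was highest at 176 FPKM. Relative to HFD, GT gave 0.53 ± 0.17 (adjusted p = 0.134) and HFD against ND -0.36 ± 0.19 (adjusted p = 0.201). With fat ND 3 and HFD 1 also left out, HFD against ND moved to -0.71. The fat difference minus the liver difference then moved from -0.6561 to -0.99985 for HFD against ND. For GT against HFD it moved from 0.79972 to 0.93949. That repeat kept ND 2 as the only ND fat library, so the spread within ND fat is unknown there. In liver Dgat1 had 21.3, 18.8 and 20.8 FPKM in GT, 20.9, 29.2 and 24.4 FPKM in HFD and 22.1, 23.8 and 15.0 FPKM in ND, with all groups overlapping. Dgat2 held 81.4%, 84.5% and 88.0% of the summed DGAT FPKM in GT fat, 83.5%, 85.6% and 87.1% in HFD fat, and 73.0% and 76.8% in ND 2 and ND 3. GT and HFD overlapped and both lay above ND 2, ND 3 and ND 1, the last at 38.9%. Without ND 1 the exact permutation p was 0.2 for HFD against ND, and 3 libraries against 2 can reach no smaller two-sided value. In liver the Dgat2 share ran from 86.3% to 93.3% over the 9 libraries, with all diets overlapping.

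Mogat1 (ENSMUSG00000012187), the monoacylglycerol acyltransferase reported to rise in fatty mouse liver, had opposite diet differences in the tissues. It had 7.14, 14.0 and 18.2 FPKM in GT fat, 4.08, 5.44 and 4.98 FPKM in HFD fat, and 38.5 and 29.96 FPKM in ND 2 and ND 3. Without ND 1, at 3.95 FPKM, the diets did not overlap, with HFD lowest, GT between and ND highest. HFD against ND gave -2.59 ± 0.33 (adjusted p = 0.00163), or 0.166-fold, called in all 15 repeats (0.000443 to 0.0129), and -1.65 ± 0.74 with ND 1 (adjusted p = 0.254). GT against ND gave -1.40 ± 0.33 (adjusted p = 0.0363), lost in 10 of 15 repeats (0.0121 to 0.0971). These included leaving out ND 2, ND 3, HFD 1, HFD 2, HFD 3 or GT 2 (0.0821, 0.0568, 0.0507, 0.061, 0.0665 and 0.0938). GT against HFD gave 1.19 ± 0.30 (adjusted p = 0.0792) and passed without GT 1 (0.0345).

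In liver Mogat1 had 9.84, 12.0 and 2.67 FPKM in GT, 14.7, 16.1 and 23.5 FPKM in HFD and 2.56, 8.23 and 3.32 FPKM in ND. The HFD libraries lay above all GT and ND libraries, and GT 3 lay among the ND libraries. HFD against ND gave 1.85 ± 0.46 (adjusted p = 0.021), or 3.59-fold. The call was lost in 5 of 16 repeats (0.00483 to 0.0898), which were no filter on low values and leaving out ND 1, ND 3, HFD 2 or HFD 3 (0.0898, 0.0871, 0.0764 and 0.0634). GT against HFD gave -1.22 ± 0.46 (adjusted p = 0.141), and GT against ND 0.62 ± 0.46 (adjusted p = 0.536).

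Mogat2 (ENSMUSG00000052396), the monoacylglycerol acyltransferase of the intestine, was low throughout. It had 4.64, 4.20 and 5.62 FPKM in GT fat, 8.56, 5.28 and 4.32 FPKM in HFD fat, and 3.64 and 4.14 FPKM in ND 2 and ND 3, with 0.321 in ND 1. GT and HFD overlapped and both lay above ND, with HFD against ND at 0.49 ± 0.25 (adjusted p = 0.188). In liver it had 0.305, 0.813 and 0.142 FPKM in GT, 0.204, 0.642 and 0.417 FPKM in HFD and 0.0831, 0.146 and 0.0730 FPKM in ND. Mogat1 held 60.6%, 77.0% and 76.4% of the summed MOGAT FPKM in GT fat, 32.3%, 50.7% and 53.5% in HFD fat, and 91.4% and 87.9% in ND 2 and ND 3. The diets did not overlap, at the smallest exact permutation p of 0.1 for GT against HFD. In liver that share was 93.7% to 98.6%. Mogat2 lies next to Dgat2 among protein-coding genes on chromosome 7 in RefSeq GRCm38.p6, and over the 8 fat libraries without ND 1 their log2 levels correlated at r = 0.41, a description over libraries that share their diets.

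**Figure D3:**
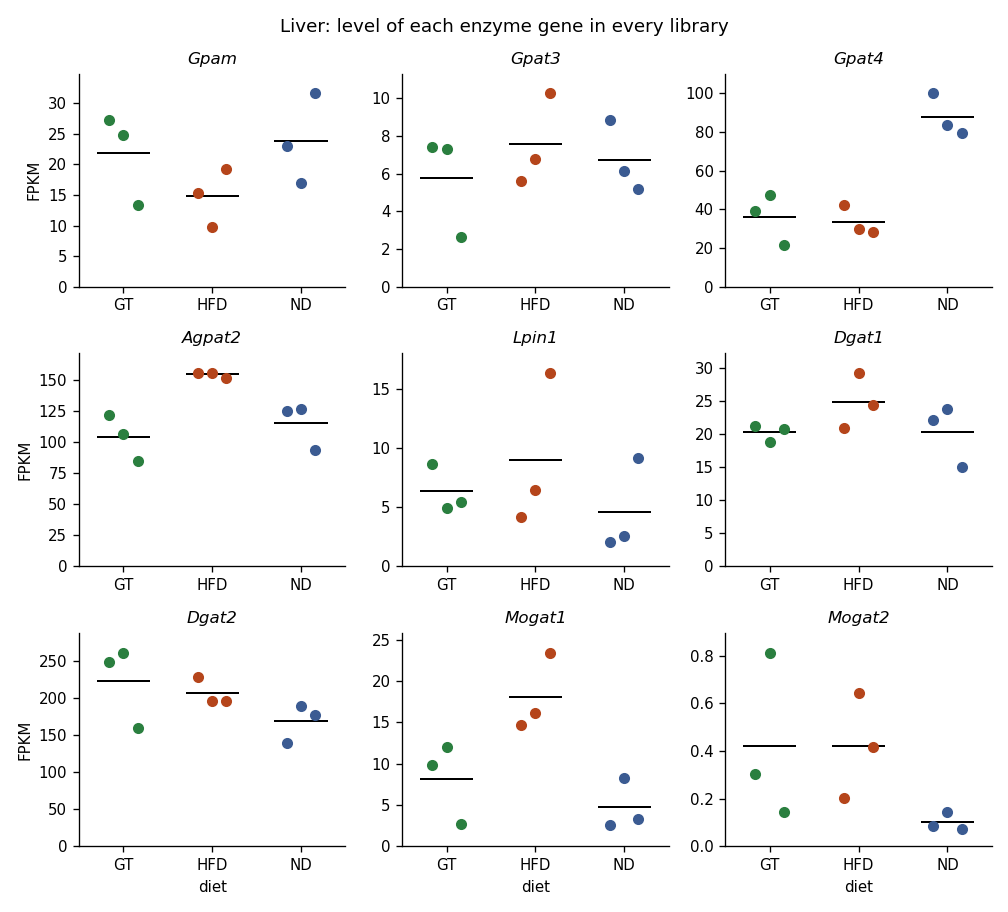
FPKM of 9 enzyme genes in each liver library on GT, HFD and ND. Points are libraries and lines are group means over 3. Gpat4 sits at 79.4 to 100.3 FPKM in ND and at most 47.7 in the other diets, and Mogat1 sits at 14.7 to 23.5 FPKM in HFD and at most 12.0 in the other diets.

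**Figure D4:**
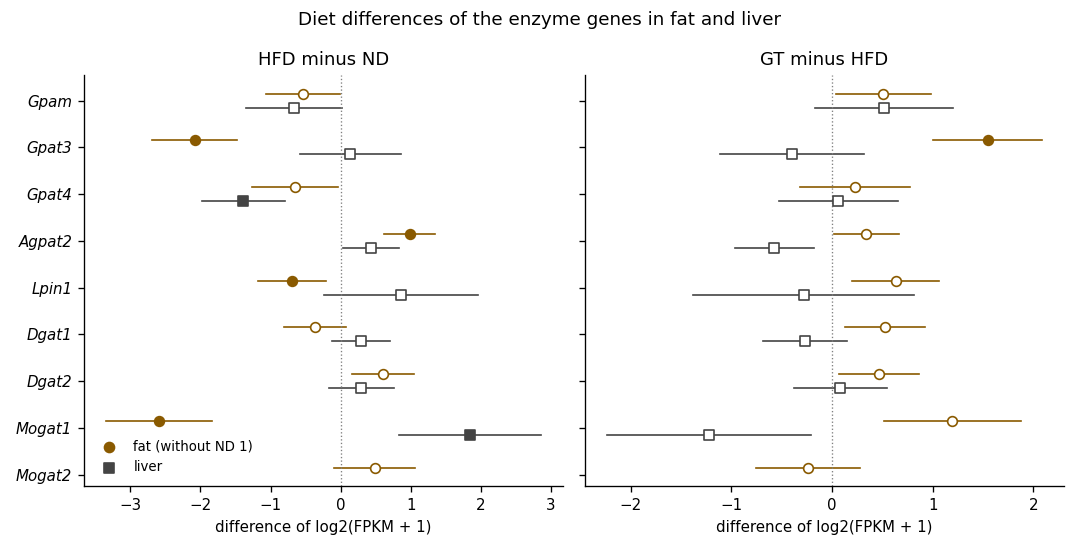
Differences of log2(FPKM + 1) with 95% intervals, as HFD minus ND at left and GT minus HFD at right, for fat without ND 1 (circles) and liver (squares). Filled marks passed at an adjusted p under 0.05. Mogat1 stands at -2.59 in fat and 1.85 in liver for HFD minus ND, and Gpat3 at 1.55 in fat for GT minus HFD.

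The diet differences were set against each other between tissues with fat ND 1 left out, in a joint fit of the other 17 libraries to 9957 genes that passed the filter in each tissue. For HFD against ND, the fat difference minus the liver difference was -4.44 ± 0.66 for Mogat1 (adjusted p = 0.000313) and -2.22 ± 0.46 for Gpat3 (adjusted p = 0.00297). These were 2 of 8 genes lower and none higher, where 11.9% of all genes were higher, 9.69% lower and 21.5% called. The median of the 8 was -0.26 against 0.05 over all genes, and with equal FPKM totals 0.02 against 0.30. With fat ND 1 in the fit Mogat1 still passed and Gpat3 did not (adjusted p = 0.171). For GT against HFD, the fat difference minus the liver difference was 2.42 ± 0.62 for Mogat1 (adjusted p = 0.0441), 1.94 ± 0.44 for Gpat3 (adjusted p = 0.0229) and 0.91 ± 0.23 for Agpat2 (adjusted p = 0.0382). These were 3 of 8 genes higher and none lower, where 2.78% of all genes were higher, 1.09% lower and 3.88% called. None of the 3 passed with equal FPKM totals (0.0909, 0.0695 and 0.143 for Mogat1, Gpat3 and Agpat2) or with fat ND 1 in the fit (0.701, 0.619 and 0.574). Fat ND 1 is in none of the groups of GT against HFD, so the differences stayed at 2.42, 1.94 and 0.91. It enters that fit through the estimate of spread shared by the groups. Leaving out 1 library at a time ended 1 or more of these calls for fat HFD 1, HFD 2, HFD 3, GT 1, GT 2 and GT 3 and for liver ND 3, HFD 1, HFD 2, HFD 3 and GT 2, with adjusted p-values up to 0.115. The fat and liver libraries of HFD enter both comparisons.

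The order of the levels differed between the tissues. In fat the mean FPKM over 8 libraries ran 566 for Dgat2, 153 for Agpat2, 113 for Dgat1, 79.7 for Lpin1, 50.4 for Gpat4, 37.2 for Gpat3, 36.4 for Gpam, 15.3 for Mogat1 and 5.05 for Mogat2. Over the libraries, Dgat2 (335 to 956) did not overlap its neighbour Agpat2 (77.9 to 220.0), while every other pair of neighbours in that order overlapped. The order was that of GT fat but not of the other diets. In HFD fat Gpam (28.4) averaged above Gpat3 (13.9) and Mogat2 (6.05) above Mogat1 (4.83), and in ND 2 and ND 3 Agpat2 (78.2) averaged below Dgat1 (117) and Lpin1 (95.1). In liver the mean over 9 libraries ran 200 for Dgat2, 125 for Agpat2, 52.4 for Gpat4, 21.8 for Dgat1, 20.2 for Gpam, 10.3 for Mogat1, 6.69 for Gpat3, 6.65 for Lpin1 and 0.314 for Mogat2. Neighbours overlapped there too, apart from Lpin1 (2.04 to 16.4) against Mogat2 (0.0730 to 0.813). Dgat2, Agpat2 and Gpat4 held the first 3 places on each diet, and the order of the genes after them differed between the diets.

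Fat held more RNA of most of these genes than liver, as it did for most genes. Counts are over genes that passed the filter in both tissues, which leaves out Mogat2, since a gene that enters through fat alone has to differ. Fat against liver had 6 of 8 genes higher and none lower on GT (59.8% of these 9957 genes higher, 14.3% lower, 74.1% either). It had 5 higher and 1 lower on HFD (61.9%, 15.6% and 77.5%), and 6 higher and 1 lower on ND (59.7%, 12.1% and 71.8%). The median over the 9957 genes was 0.67 on GT, 0.76 on HFD and 0.70 on ND, and it was 1.09, 1.34 and 1.02 with equal FPKM totals, so a difference is best read against that shift. Lpin1 stood at 3.66 ± 0.45 on GT, 2.75 ± 0.45 on HFD and 4.30 ± 0.50 on ND, and Dgat1 at 2.63 ± 0.19, 1.83 ± 0.19 and 2.49 ± 0.21. Both genes passed on every diet and in all 24 repeats. Gpat3 stood at 2.77 ± 0.32 on GT, 0.83 ± 0.32 on HFD and 3.05 ± 0.36 on ND. The HFD value, close to the median of all genes, lost its call in 6 of 24 repeats. Mogat1 was lower in fat than in liver on HFD (-1.69 ± 0.46, adjusted p = 0.00382), higher in fat on ND (2.74 ± 0.51, adjusted p = 0.000259) and not called on GT (0.73 ± 0.46, adjusted p = 0.165). Agpat2 was higher in fat on GT (0.93 ± 0.16, adjusted p = 7.72e-05), at 0.01 ± 0.16 on HFD, and lower in fat on ND (-0.54 ± 0.18, adjusted p = 0.0132), which was lost in 4 of 24 repeats. Dgat2 was higher in fat on every diet, at 1.05 to 1.74, but on ND it stood at 0.51 and lost its call when fat ND 1 was kept (adjusted p = 0.233). Gpam stood at 0.80 to 0.93, near the median, and was below 0 on ND when fat ND 1 was kept (-0.43). Gpat4 passed on no diet (0.47, 0.31 and -0.43 on GT, HFD and ND). With equal FPKM totals Gpat4 passed on GT (0.93) and HFD (0.95), Agpat2 passed on HFD (0.67) and no longer on ND (-0.18), and Mogat1 passed on GT (1.14).

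**Figure D5:**
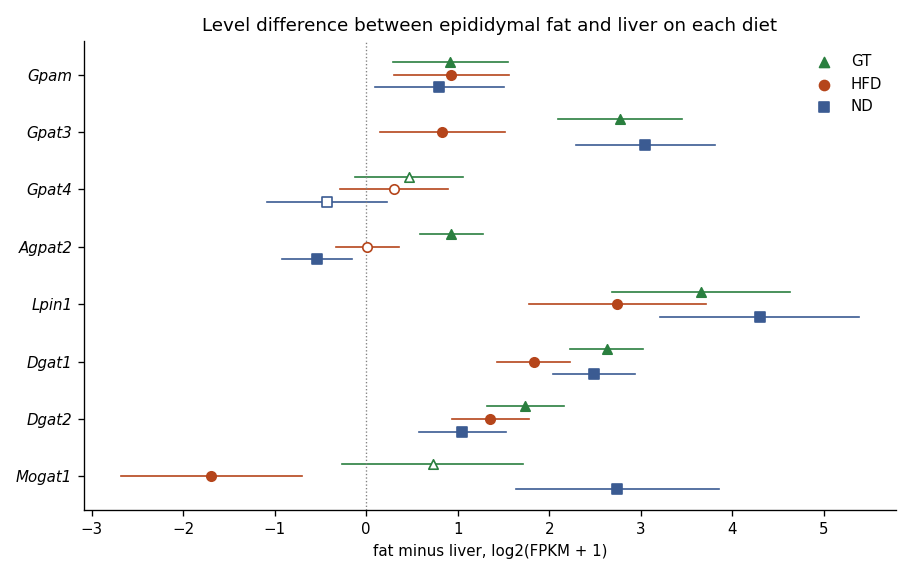
Difference of log2(FPKM + 1) between epididymal fat and liver for the 8 enzyme genes that passed the filter in both tissues, on GT (triangles), HFD (circles) and ND (squares), with 95% intervals and fat ND 1 left out. Filled marks passed at an adjusted p under 0.05. Mogat1 lies at -1.69 on HFD and 2.74 on ND, and Lpin1 lies at 2.75 or more on all diets.

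Genes around the pathway were read from 6 lists, written with earlier results of these data known. In fat without ND 1, HFD against ND had 5 of 7 triglyceride breakdown genes lower and none higher, with a list median of -0.79 against 0.02 over all genes. All list counts for this comparison stand against 17.8% of all genes higher, 9.62% lower and 27.4% either. They were Ces1d, a carboxylesterase (-2.55, adjusted p = 0.00296), Lipe, the hormone-sensitive lipase (-0.88, 0.00571), Pnpla2, the adipose triglyceride lipase (-0.99, 0.0315), its activator Abhd5 and its inhibitor G0s2. The supply of glycerol 3-phosphate and acyl-CoA had 2 higher and 3 lower of 10. Pck1, the cytosolic phosphoenolpyruvate carboxykinase of glyceroneogenesis, gave -3.05 (adjusted p = 0.00114), the acyl-CoA synthetase gene Acsl5 0.80 (0.00185), the glycerol channel Aqp7 -0.59 (0.0142), and Gpd1, which makes glycerol 3-phosphate from dihydroxyacetone phosphate, 1.33 (0.0179). Other acyltransferases and phosphatases had only Agpat3 called of 9, lower (-0.68, adjusted p = 0.0146). The phospholipid branch had 1 higher and 2 lower of 10, and regulators 2 higher and 1 lower of 11, led by Insig1, which holds back sterol regulatory element-binding proteins (1.54, adjusted p = 0.00104). With all 9 fat libraries, only Gpd1 (1.39, adjusted p = 0.0469) and Insig1 (2.14, adjusted p = 0.0393) were called in these lists, and the breakdown list had a median of -0.26 against 0.13 over all genes.

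GT against HFD in fat without ND 1 had 3 list genes called, all higher. They were Aqp7 (0.78, adjusted p = 0.0412), Lipe (0.92, adjusted p = 0.0413) and Pck1 (1.53, adjusted p = 0.0461), so the counts were 2 of 10 supply genes, 1 of 7 breakdown genes and none in the other lists, where 0.894% of all genes were higher. With all 9 libraries none was called. GT against ND had 2 of 10 supply genes higher, Gpd1 (1.35) and Acsl5 (0.59), and 1 lower, Pck1 (-1.52). It had 1 of 7 breakdown genes lower, Ces1d (-1.65), and 1 of 11 regulators higher, Insig1 (1.46), where 7.5% of all genes were higher and 3.16% lower. With all 9 libraries none of these 5 was called (adjusted p = 0.105 for Gpd1 and Insig1, 0.221 for Acsl5). Ces1d then stood at -0.40, and Pck1 turned sign to 0.046.

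In liver, HFD against ND had 4 of 12 regulators higher and none lower. This and the other list counts of HFD against ND stand against 11.9% of all genes higher, 6.67% lower and 18.6% either. The 4 were Pparg, a nuclear receptor of fat cell formation and lipid storage (1.21, adjusted p = 0.00531), Insig1 (1.12, 0.0134), Srebf1, the gene of a lipogenic transcription factor (0.88, 0.0227), and Cebpa, a factor of liver and fat cell identity (0.55, 0.0376). The list median was 0.16 against -0.02 over all genes. Supply genes had 1 higher and 4 lower of 9, with the acyl-CoA synthetase Acsl1 at -1.05 (adjusted p = 0.0148), Pck1 at -1.34 (0.0151), the glycerol kinase gene Gk at -0.86 (0.0155) and Gpd1 at 0.55 (0.0358). The breakdown list had G0s2 higher of 6 (0.93, adjusted p = 0.0397) and the phospholipid branch Pemt, the phosphatidylethanolamine methyltransferase, higher of 9 (0.66, adjusted p = 0.018). Other acyltransferases and phosphatases had the lipid phosphate phosphatase genes Plpp2 higher (0.66, adjusted p = 0.0482) and Plpp1 lower (-0.68, adjusted p = 0.0125) of 9. GT against HFD in liver had only Gpd1 called, lower (-0.77, adjusted p = 0.026). That is 1 of 9 supply genes, where 5.36% of all genes were called in either direction. GT against ND in liver had 3 of 12 regulators higher, Srebf1 (1.41), Insig1 (1.62) and Pparg (0.92). It had 2 of 9 supply genes lower, Gk (-1.07) and Pck1 (-1.41). Of the other acyltransferases and phosphatases 1 of 9 was lower, Plpp1 (-0.94). Across all genes 1.33% were lower and 2.6% called in either direction for GT against ND. Of the DGAT2 relatives Awat1, Awat2, Dgat2l6 and Mogat2, only Mogat2 passed the filter in fat and none in liver.

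The genes whose log2 levels were most like those of Gpat3 over the 8 fat libraries were Sdr42e1 (r = 0.996), Ucp3 (r = 0.993) and Amotl2 (r = 0.992). Among the enzyme genes Mogat1 (r = 0.939, place 186 of 12859 genes) and Lpin1 (r = 0.912, place 319) were nearest to it. For Dgat2 in fat they were Cdr2 (r = 0.998), Ephb2 (r = 0.995) and Ccm2 (r = 0.970), and Agpat2 held place 15 of 12859 genes (r = 0.930). In liver, over 9 libraries, Mogat1 was most like Lyplal1 (r = 0.972), Fam213a (r = 0.967) and Dhrs7 (r = 0.966), and Gpam most like Fam120a (r = 0.989) and Lcorl (r = 0.984). The libraries share their diets and their FPKM scaling, so these values describe likeness only.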

How the data were processed

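Epididymal fat and liver RNA was measured in 18 libraries, 3 for each of 3 diets in each tissue, and groups were taken from the labels. The authors deposited 1 table of FPKM per Ensembl gene, used as it stands; columns matching no sample numbered 0. The submitters' processing notes name Cufflinks 2.1.1, STAR 2.4.0 and CASAVA 1.8.2, without their roles. The genome build and annotation are not given in the sources used here. Read numbers were not analysed here, so the depth behind each value is unknown and no counting interval is given. Of 23474 identifiers 22671 matched a symbol in GENCODE M21, 803 did not, and 0 symbols occurred more than once.

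Values were tested as log2(FPKM + 1) by limma (version 3.58.1 under R 4.3.3), fitting group means, with trended, robust empirical Bayes moderation of the variances. Fold changes are ratios of FPKM + 1, not of FPKM, and understate the change of low genes. A gene entered when at least 3 libraries of the tissue's fit reached 1 FPKM, which kept 13762 genes in fat, 12859 in fat without ND 1 and 10670 in liver. Fat ND 1 was left out of the fits across both tissues, where only genes that passed in both tissues were counted. P-values were adjusted by Benjamini-Hochberg over all genes of a fit and called at 0.05, and single shares were compared by exact two-sided permutation tests. The code was tested on simulated data.

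All 10 enzyme genes are named. From 6 lists of related genes the called ones are counted, and up to 4 of smallest p are named, apart from Pnpla2 in fat for HFD against ND, which was named after its values were seen. For Gpat3 and Dgat2 in fat and Mogat1 and Gpam in liver, the 3 genes of highest Pearson correlation are given, passing over predicted, clone-named and pseudogene entries; 1 of those for Gpam is not reported here. The members and lists were chosen with earlier results of these data known. Alternatives were an added 0.1, no filter, a filter of 5 FPKM, equal FPKM totals, the replicate number as a block, only the 2 compared diets, fat ND 1 kept, and each library left out.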

Additional observations from a re-analysis of the deposited data

Results flagged for a closer look

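For 5 results the diet difference in fat differed from that in liver, by the test of the difference itself in limma over 17 libraries without fat ND 1. The HFD minus ND difference was lower in fat than in liver for Mogat1, at -4.44 ± 0.66 for fat minus liver on the log2 scale (SE; adjusted p = 0.000313), and for Gpat3, at -2.22 ± 0.46 (adjusted p = 0.00297). In fat HFD lay below ND 2 and ND 3 in 3 of 3 libraries for both genes. In liver HFD lay above ND in 3 of 3 libraries for Mogat1, and the groups overlapped for Gpat3. The GT minus HFD difference was higher in fat than in liver for Mogat1 by 2.42 ± 0.62 (adjusted p = 0.0441), for Gpat3 by 1.94 ± 0.44 (adjusted p = 0.0229) and for Agpat2 by 0.91 ± 0.23 (adjusted p = 0.0382). GT lay above HFD in 3 of 3 fat libraries for Mogat1 and Gpat3 and below HFD in 3 of 3 liver libraries for Mogat1 and Agpat2, while Gpat3 overlapped in liver and Agpat2 in fat. Across repeats the adjusted p ran from 6.29e-05 to 0.0321 for Mogat1 and from 0.000499 to 0.171 for Gpat3 in HFD against ND. In GT against HFD it ran from 0.0289 to 0.701 for Mogat1, 0.0157 to 0.619 for Gpat3 and 0.0277 to 0.574 for Agpat2.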

How the results depend on the processing

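Of 2154 repeated values of single genes, 1957 kept their direction and side of the threshold, 100 lost a call, 37 gained one, 59 turned sign while passing in neither test, and 1 turned while passing in 1 of them. The cause of these changes was not tested. Depth is unknown, and 3 libraries a group (2 in ND fat without ND 1) limit the precision. With all 9 fat libraries, where none of the 9 genes passed, 1 passed for HFD against ND with equal FPKM totals and 1 for GT against HFD with only the 2 compared diets, and leaving out 1 library gave 0 to 4, 0 to 1 and, for GT against ND, 0 to 3. Without ND 1, HFD against ND called 4 genes and no alternative moved that count by over 1.5 times. GT against HFD, with 1 called, gave 0 with no filter and 0 without ND 3 and HFD 1 (chosen after seeing the data), and 0 to 2 leaving out 1 library. GT against ND, with 3 called, gave 1 with only the 2 compared diets, 1 without ND 3 and HFD 1, and 1 to 4 leaving out 1 library. In liver HFD against ND, with 2 called, gave 1 with no filter and 1 to 3 leaving out 1 library, and GT against ND, with 1 called, gave 0 with no filter, with equal FPKM totals and with only the 2 compared diets, and 0 to 1 leaving out 1 library. The tissue difference of GT against HFD, with 3 called, gave 0 with equal FPKM totals, 0 with fat ND 1 and 0 to 3 leaving out 1 library, and that of HFD against ND, with 2 called, gave 1 with fat ND 1. Fat against liver on ND, with 7 called, gave 4 with fat ND 1, where Gpam turned to -0.43.

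Nothing in the labels pairs the replicate numbers. Over 18 same-numbered pairs the deviations from group means correlated at -0.301 to 0.643, with 10 over 0.1. Every pair was over 0.1 only for GT and ND in 9 fat libraries (0.258, 0.124 and 0.189). In that comparison none of the 9 enzyme genes tested was called, with or without the block. Without ND 1 the pairs left there gave 0.103 and -0.0412. A library correlated best with its own number in 11 of 18 cases in fat, 5 of 14 in fat without ND 1 and 7 of 18 in liver. With the replicate number as a block, the calls of Lpin1 for HFD against ND (adjusted p = 0.083), Gpat3 for GT against HFD (0.113) and Dgat2 and Mogat1 for GT against ND (0.0591 and 0.0745) were lost in fat without ND 1. The counts there were 0 for GT against HFD and 1 for GT against ND, and Gpam turned to 0.11 and Lpin1 to 0.0016.

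The other turns were of values that passed in neither test. With equal FPKM totals they were Dgat1 in 9 fat libraries (0.29) and Gpam in fat without ND 1 (0.025) for GT against ND, in liver Gpat3 for HFD against ND (-0.049) and Dgat1 for GT against ND (-0.043), and the tissue difference of Gpat4 for GT against HFD (-0.019). Without fat ND 3 and HFD 1, Mogat2 for GT against HFD came to 0.0029, Gpam, Lpin1 and Dgat1 for GT against ND to 0.055, 0.19 and -0.039, and Agpat2 in HFD fat against liver to -0.087. Without liver HFD 2 and GT 3, Gpam and Gpat3 for GT against ND came to 0.16 and 0.14.

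Leaving out 1 library turned these. In 9 fat libraries: Gpam for HFD against ND (-0.53 to 1.35) and, for GT against ND, Gpam (-0.023 to 1.86), Gpat3 (-0.53 to 0.52), Lpin1 (-0.14 to 0.21), Dgat1 (-0.23 to 0.17) and Mogat1 (-1.40 to 0.10), with Mogat2 for GT against HFD at -0.42 to 0.0029, as also without ND 1. Without ND 1, for GT against ND: Gpam (-0.23 to 0.12), Lpin1 (-0.31 to 0.19) and Dgat1 (-0.039 to 0.37). In liver: Gpat3 (-0.078 to 0.33) for HFD against ND, Gpat4 (-0.17 to 0.39), Lpin1 (-0.66 to 0.21), Dgat2 (-0.047 to 0.31) and Gpat3 (-0.60 to 0.0035) for GT against HFD, and Gpam (-0.36 to 0.16), Dgat1 (-0.17 to 0.14) and Gpat3 (-0.46 to 0.14) for GT against ND. In the tissue difference: Gpam for HFD against ND (-0.12 to 0.34) and Gpam (-0.31 to 0.24) and Gpat4 (-0.16 to 0.40) for GT against HFD. Agpat2 in HFD fat against liver ran from -0.087 to 0.074. Shares, in percentage points: in fat, Gpat3 for GT against ND (-4.41 to 12.6), Gpat4 for HFD against ND (-18.9 to 10.5) and Dgat2 for GT against HFD (-2.42 to 0.891), and in liver Gpat4 for GT against HFD (-8.83 to 0.201), Dgat2 (-1.36 to 1.59) and Mogat1 (-0.442 to 0.791) for HFD against ND.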
